A study of Homo sapiens with 6 samples.

Results

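Messenger RNA of 10 immediate-early transcription factors was followed in SW620, an established human colorectal cancer line, after stable knockdown of DKC1, which encodes the pseudouridine synthase dyskerin. The factors were the FOS family (FOS, FOSB, FOSL1 and FOSL2), the JUN family (JUN, JUNB and JUND), ATF3, and the zinc finger factors EGR1 and EGR3. They were found by their gene symbol in a count table of 19672 genes. All 10 were in the table and all 10 passed the filter on low counts, as did 13299 of all genes. The study had 6 libraries in 3 groups of 2: cells with a scrambled shRNA (scramble), and knockdown lines called C3 and C6. Every group was SW620 under 1 µg/mL puromycin with no further treatment, and every library carries the same batch date. The sources used here do not give which shRNA C3 or C6 carries, or whether either line is 1 clone. The libraries of a group are titled biological replicates without mention of separate cultures, so p-values measure the spread between these libraries, which may be technical. C3 replicate 1 is tagged control in its genotype field, against its title, and was kept in C3 by the title.

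AP-1 is a family of leucine zipper factors that bind DNA as pairs. FOS proteins need a partner and pair with JUN proteins, whereas JUN proteins can also pair with each other, and ATF3 pairs with JUN proteins and often acts as a repressor. EGR factors bind GC-rich DNA through zinc fingers and are restrained by the NAB corepressors. Growth factor and stress signals through the ERK, JNK and p38 kinases can raise transcription of genes in these families, for some of them within minutes.

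Total counts per library were between 26077966 and 31021000, at which 3 counts, the limit that a count of 0 allows, correspond to between 0.0968 and 0.114 CPM (TMM-scaled count divided by library size, in units of 1e6 reads). This limit covers counting error only. DKC1 stood at 320 and 315 CPM in scramble, 144 and 149 in C3 libraries and 70.3 and 67.1 in C6 libraries, so the library tagged control lay beside its C3 replicate. Of 10 colorectal epithelial markers 8 were above 1 CPM in every library, while PTPRC, CD3E and MS4A1 of leukocytes, CDH5 of endothelium, and COL1A2, COL3A1 and DCN of fibroblasts had no count in any library. Other markers on these lists were present: 3 of 6 fibroblast, 1 of 6 leukocyte and 1 of 4 endothelial markers were above 1 CPM in every library. CD68, a macrophage marker, stood at 16.8 and 15.2 CPM in scramble, fell to 10.5 and 10.8 in C3 (−0.58) and rose to 33.0 and 39.98 in C6 (1.19). LUM of fibroblasts rose in C3 (0.59) and fell in C6 (−0.48). COL1A1 (−0.97) and PDGFRB (−0.73) also fell in C6 and were not called in C3. DESeq2 called 1 of these 3 fibroblast markers lower in C6. VWF of endothelium fell in C3 (−0.85). PECAM1 of endothelium, at 1.49 and 0.894 CPM in scramble, fell in C6 (−1.47), a call that DESeq2 did not make. The part of these markers in the results was not tested.

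The DNA just before the start of these genes is shown as a description. The part of these letters in the levels of the genes was not tested. The windows of JUNB and ATF3 were searched but are not printed. The windows are the 250 bases before the RefSeq start (GRCh38.p14), on the gene's strand, for 8 of the 10 genes. FOSL1, the most abundant FOS family gene, had no window in the source used, and EGR3 was left out of the search. Capitals mark matches to the motifs searched on both strands: TGANTCA (the AP-1 site), TGACGT (the core of the cAMP response element), TGACATCA (the variant AP-1 site known from the JUN promoter), GCGNGGGCG (the EGR site), and the CArG box, which SRF binds.
JUN: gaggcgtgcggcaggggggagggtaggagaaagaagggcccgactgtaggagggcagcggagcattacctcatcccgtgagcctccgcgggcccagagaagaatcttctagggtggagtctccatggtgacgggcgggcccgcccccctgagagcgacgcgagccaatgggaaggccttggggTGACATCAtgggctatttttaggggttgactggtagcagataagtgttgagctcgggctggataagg
JUND: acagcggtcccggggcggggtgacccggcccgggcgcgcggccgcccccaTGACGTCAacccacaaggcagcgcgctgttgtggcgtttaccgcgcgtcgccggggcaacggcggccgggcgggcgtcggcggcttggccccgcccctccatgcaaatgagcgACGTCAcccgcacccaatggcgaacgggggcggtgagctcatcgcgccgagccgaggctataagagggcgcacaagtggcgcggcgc
FOS: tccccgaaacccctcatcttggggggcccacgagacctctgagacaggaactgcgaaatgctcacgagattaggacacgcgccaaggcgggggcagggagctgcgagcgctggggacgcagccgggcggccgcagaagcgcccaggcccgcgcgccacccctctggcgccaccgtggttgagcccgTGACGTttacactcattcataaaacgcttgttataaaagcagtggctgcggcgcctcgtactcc
FOSB: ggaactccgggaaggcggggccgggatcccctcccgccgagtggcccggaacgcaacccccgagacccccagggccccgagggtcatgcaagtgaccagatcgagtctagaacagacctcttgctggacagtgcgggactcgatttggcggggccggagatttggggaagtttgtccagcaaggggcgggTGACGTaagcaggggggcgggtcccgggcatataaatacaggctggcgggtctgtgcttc
FOSL2: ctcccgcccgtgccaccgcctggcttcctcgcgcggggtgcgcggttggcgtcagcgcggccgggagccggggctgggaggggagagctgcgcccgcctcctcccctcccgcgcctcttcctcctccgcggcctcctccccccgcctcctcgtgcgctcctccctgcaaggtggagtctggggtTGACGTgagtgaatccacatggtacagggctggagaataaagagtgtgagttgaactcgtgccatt
EGR1: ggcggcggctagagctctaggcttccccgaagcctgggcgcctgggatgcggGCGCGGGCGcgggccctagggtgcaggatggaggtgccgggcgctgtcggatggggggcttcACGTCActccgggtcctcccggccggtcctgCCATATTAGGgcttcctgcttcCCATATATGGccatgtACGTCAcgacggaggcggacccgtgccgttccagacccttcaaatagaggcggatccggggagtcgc
These windows are chr1:58784048-58784297 (minus strand) for JUN, chr19:18281623-18281872 (minus) for JUND, chr14:75278578-75278827 for FOS, chr19:45467746-45467995 for FOSB, chr2:28392608-28392857 for FOSL2 and chr5:138465229-138465478 for EGR1. With the base before the start as −1, FOS, FOSB and FOSL2 each held TGACGT once, at −64 to −59, −60 to −55 and −66 to −61. JUN held TGACATCA at −67 to −60, and ATF3 held it at −123 to −116 of its upstream start. JUND held a full palindrome of overlapping TGACGT matches at −200 to −193 and a further match at −87 to −82. EGR1 held 2 CArG boxes at −105 to −96 and −83 to −74, TGACGT on the opposite strand at −136 to −131 and −67 to −62, and an EGR site at −198 to −190. JUNB and the second window of ATF3 held none of these motifs, and no window of the 8 genes held TGANTCA. Among 35114 such windows of all genes, 7.1% held TGACGT, 2.38% TGACATCA, 6.57% TGANTCA, 8.41% the EGR site and 1.16% a CArG box. Sites further than 250 bases before the start were not searched, so a motif absent from a window may lie outside it. A match describes letters and shows no binding.

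The JUN family was higher in both knockdown lines. JUN (GRCh38 chromosome 1, 58780791 to 58784047), a partner in most AP-1 dimers and a substrate of JNK, stood at 144 and 137 CPM in scramble, 233 and 219 in C3 libraries and 298 and 306 in C6 libraries. The groups did not overlap, with both C6 libraries the highest. In bulk RNA, fewer cells expressing a gene and less RNA per cell cannot be told apart. On the log2 scale JUN rose by 0.69 ± 0.06 (SE) for C3 (adjusted p = 8.2e-07) and by 1.11 ± 0.06 for C6 (adjusted p = 2.2e-09). These and all further adjusted p-values are from the quasi-likelihood test of edgeR, adjusted over all genes tested by the Benjamini-Hochberg method.

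JUNB (chromosome 19, 12791486 to 12793315), a JUN relative that can dampen the activity of JUN, was counted at 32.5 and 30.5 CPM in scramble, 44.0 and 43.8 in C3 libraries and 53.5 and 52.5 in C6 libraries. It rose by 0.48 ± 0.08 in C3 cells (adjusted p = 0.000353) and by 0.75 ± 0.08 in C6 cells (adjusted p = 1.6e-06). JUNB overlaps the gene HOOK2, whose count fell in both lines, by 0.43 in C3 (adjusted p = 0.0242) and by 1.11 in C6 (adjusted p = 9.8e-06). JUND (chromosome 19, 18279694 to 18281622), the member most often expressed in resting cells, gave 43.5 and 41.2 CPM in scramble, 57.5 and 63.3 in C3 libraries and 68.4 and 64.5 in C6 libraries. Its rise was 0.51 ± 0.08 in C3 cells (adjusted p = 0.000196) and 0.65 ± 0.08 in C6 cells (adjusted p = 7.7e-06). For JUNB and JUND, as for JUN, every knockdown library lay above every scramble library.

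**Figure D1:**
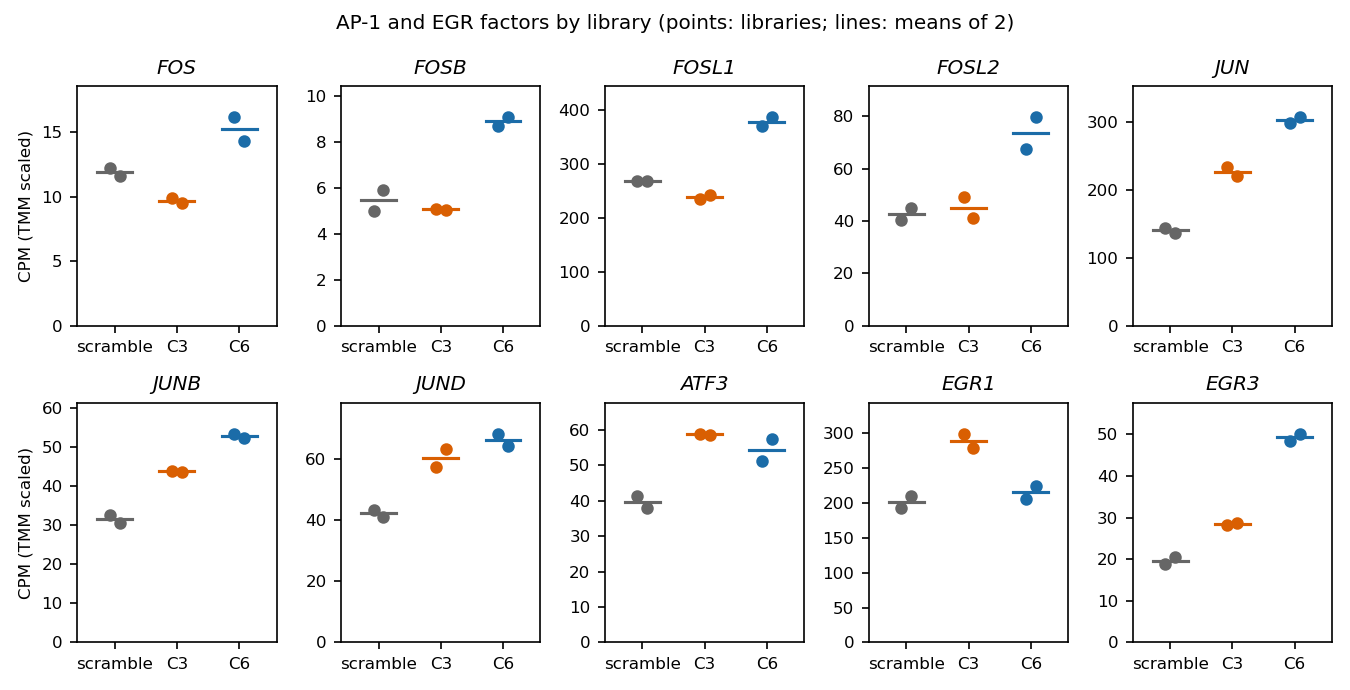
CPM (y axis, TMM scaled, from 0) of the 10 factors in scramble, C3 and C6 (x axis); points are libraries and lines the means of 2. JUN, JUNB, JUND, ATF3 and EGR3 lie above scramble in both lines, the 4 FOS family genes do so in C6, and EGR1 in C3.

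In the FOS family all 4 members were called higher in C6, beside 23.8% of all genes, although the call of FOS depended on the fit, as given below. In C3 0 of 4 were called higher, also at an unadjusted p by edgeR and by DESeq2. That count is close to the share of all genes called higher in C3, 12.4%. FOSL1 (chromosome 11, 65892049 to 65900545), which encodes FRA1, stood at 267 and 268 CPM in scramble, 235 and 242 in C3 libraries and 369 and 386 in C6 libraries. Both C3 libraries were below and both C6 libraries above the scramble pair. Its log2 fold change was 0.50 ± 0.06 in C6 (adjusted p = 4.4e-06) and −0.17 ± 0.06 in C3 (adjusted p = 0.0429). The fall in C3 lost its call without either scramble library or either C3 library, where adjusted p lay between 0.128 and 0.271, and the adjusted p was 0.0865 with the replicate number as a block.

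FOSL2 (chromosome 2, 28392858 to 28417317), which encodes FRA2, was at 40.4 and 44.8 CPM in scramble, 49.2 and 41.1 in C3 libraries and 67.4 and 79.5 in C6 libraries. C3 overlapped scramble (0.08 ± 0.10, adjusted p = 0.607), and C6 was higher by 0.79 ± 0.10 (adjusted p = 3.1e-05). FOSL2 overlaps the antisense gene FOSL2-AS1, and without a stated strand setting of the counting their reads cannot be told apart. FOSB (chromosome 19, 45467996 to 45475179) was the least abundant member, at 4.98 and 5.92 CPM in scramble, 5.07 and 5.05 in C3 libraries and 8.70 and 9.06 in C6 libraries. It rose in C6 by 0.70 ± 0.16 (adjusted p = 0.00225), while the C3 value was −0.11 ± 0.17 (adjusted p = 0.697).

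FOS (chromosome 14, 75278828 to 75282230), the prototype of the family, gave 12.2 and 11.7 CPM in scramble, 9.91 and 9.53 in C3 libraries and 16.2 and 14.3 in C6 libraries. The groups did not overlap, with C3 lowest. Its rise in C6 was 0.35 ± 0.12 (adjusted p = 0.0243), and its C3 value was −0.30 ± 0.12 (adjusted p = 0.0952). The C6 call was lost without scramble replicate 1 (adjusted p = 0.0596), scramble replicate 2 (0.115) or C6 replicate 1 (0.166), with upper-quartile scaling (0.0578) and by DESeq2 (0.144). FOS was higher in C6 than in C3 by 0.65 ± 0.12 (adjusted p = 0.000382), and that call was kept under every alternative run.

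ATF3 (chromosome 1, 212565407 to 212620777), a stress-induced factor and target of ATF4, stood at 41.4 and 37.9 CPM in scramble, 58.8 and 58.5 in C3 libraries and 51.04 and 57.38 in C6 libraries. It rose in both lines, by 0.57 ± 0.08 in C3 cells (adjusted p = 0.000119) and 0.45 ± 0.08 in C6 cells (adjusted p = 0.000368). The lines differed by −0.11 ± 0.08 for C6 against C3, which did not pass the test (adjusted p = 0.258).

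EGR1 was higher in C3 and EGR3 in both lines. EGR1 (chromosome 5, 138465479 to 138469303), the main EGR factor induced by ERK, was counted at 193 and 209 CPM in scramble, 299 and 278 in C3 libraries and 205 and 225 in C6 libraries. The C6 libraries overlapped scramble. EGR1 rose by 0.52 ± 0.07 in C3 (adjusted p = 3.5e-05), its C6 value was 0.10 ± 0.07 (adjusted p = 0.245), and C6 lay below C3 by a difference of −0.43 ± 0.07 (adjusted p = 7.7e-05). EGR3 (chromosome 8), itself a target of EGR1 in other cells, gave 18.8 and 20.4 CPM in scramble, 28.1 and 28.6 in C3 libraries and 48.4 and 50.1 in C6 libraries. It rose by 0.53 ± 0.09 in C3 cells (adjusted p = 0.000428) and by 1.33 ± 0.09 in C6 cells (adjusted p = 1.4e-08).

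EGR3 lies where neighbouring genes shifted together in C6: the median log2 fold change of the 51 genes around it was 0.43 in C6 and −0.04 in C3. With that shift entered as an offset EGR3 stood at 0.90 in C6 (adjusted p = 1.1e-06) and its difference between C6 and C3 went from 0.80 to 0.32 (adjusted p = 0.00534). For the other 9 factors the median of the neighbours lay between −0.08 and 0.10 in either line, and the offset changed no call of theirs in either line or between the lines.

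**Figure D2:**
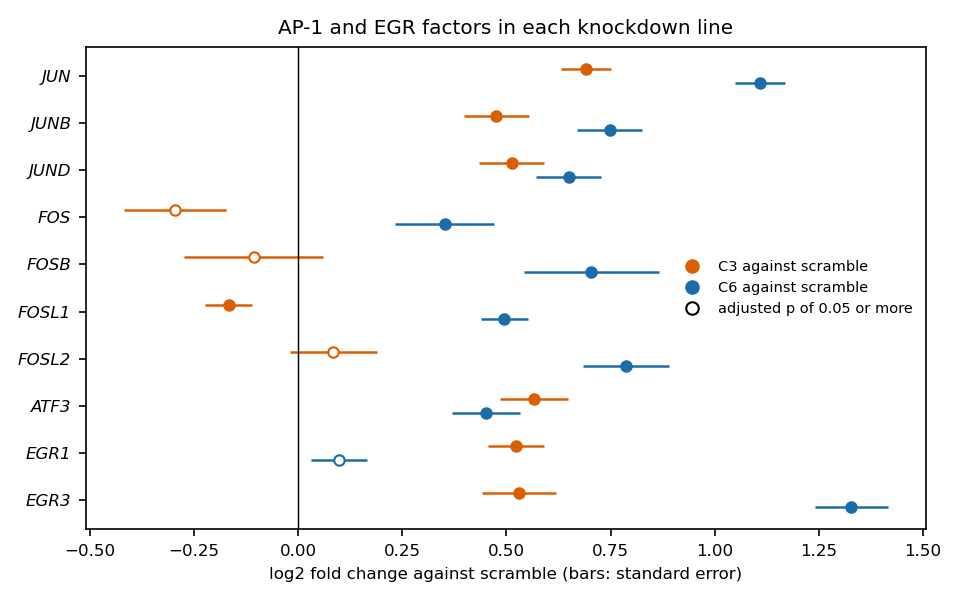
Log2 fold change against scramble (x axis, bars are standard errors) of the 10 factors (y axis) in C3 (orange) and C6 (blue); open points have an adjusted p of 0.05 or more. JUN, JUNB, JUND, ATF3 and EGR3 are filled on the right in both lines, the 4 FOS family genes in C6 and EGR1 in C3, while FOSL1 is filled at −0.17 in C3.

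Counted over the set, 6 of 10 factors rose in C3 and 9 of 10 in C6, against 12.4% and 23.8% of all genes tested (24.3% and 46.7% counting both directions). Both C3 libraries lay above both scramble libraries for 6 of 10 factors and below for 2, as for 31.8% and 31.1% of all genes. Both C6 libraries lay above for 9 of 10 and below for 0, as for 36.1% and 36.8% of all genes. In C3 1 of 10 fell, and 11.9% of all genes did. In C6 0 of 10 fell by edgeR's test, by its unadjusted p or by DESeq2, and 22.8% of all genes did. The same 5 factors, JUN, JUNB, JUND, ATF3 and EGR3, rose in both lines, where 5.44% of all genes did, 0 were called lower in both (4.59% of all genes), and 1, FOSL1, was called with opposite signs, as were 4.93% of all genes. The median log2 fold change of the 10 was 0.49 in C3 and 0.68 in C6, beside 0.00 and −0.01 for all genes tested. C3 and C6 were set against the same scramble libraries. Without C3 replicate 1, the library tagged control, 6 of 10 rose in C3 and 0 fell (2 had an unadjusted p under 0.05 with all libraries, FOS and FOSL1).

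For the mean of both lines 8 of 10 were higher and 0 lower by edgeR, at an unadjusted p and by DESeq2, beside 16.6% and 16.3% of all genes (32.9% in either direction). The call of FOSL2 in that mean was lost without scramble replicate 1 (adjusted p = 0.0506). That of FOSL1 was lost without scramble replicate 1 (0.0971), scramble replicate 2 (0.1) or C3 replicate 2, and with the neighbour offset (0.112). With upper-quartile scaling the share of higher genes among all calls of that comparison went from 50.5% to 37.2%, and 7 of the 8 kept their call, FOSL1 being lost (adjusted p = 0.0919). When the 4 knockdown libraries were taken as 1 group, which counts the difference between C3 and C6 as spread, 0 of 10 passed by edgeR and 5 had an unadjusted p under 0.05.

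The direct test of C6 against C3 called 8 of 10 factors, 7 higher and 1, EGR1, lower, against 25.1% and 24.1% of all genes. The 4 FOS family genes differed by between 0.65 and 0.81, FOSB by 0.81 ± 0.16 (adjusted p = 0.000679), FOSL2 by 0.70 ± 0.10 (adjusted p = 6.5e-05) and FOSL1 by 0.66 ± 0.06 (adjusted p = 1.7e-07). JUN differed by 0.42 ± 0.06 (adjusted p = 3.2e-05) and JUNB by 0.27 ± 0.08 (adjusted p = 0.0075), a call lost without C3 replicate 2 (adjusted p = 0.0535). JUND (0.14 ± 0.08, adjusted p = 0.154) and ATF3 did not pass. DKC1 was lower in C6 than in C3, and with 1 line at each level its amount and the line cannot be told apart.

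Levels were compared between genes per kilobase of the longest matching GENCODE 29 transcript. In the FOS family FOSL1 made up between 91.4% and 92.5% of the summed level in every library, although its share depends on the transcript taken, whose length ranged from 1132 to 1669 bases. FOSL1 stood at 160 ± 0.405 CPM per kilobase in scramble (SD, n = 2), against 6.35 ± 0.465 for FOSL2, 5.53 ± 0.186 for FOS and 1.44 ± 0.177 for FOSB. In scramble FOSL2 at 6.02 and 6.68 lay above FOS at 5.66 and 5.40, and in C6 the gap was 10.0 and 11.9 against 7.50 and 6.63. In the JUN family JUN held between 49.6% and 57.7% of the summed level, JUND between 23.1% and 28.5% and JUNB between 19.2% and 21.9%. EGR1, at 64.0 ± 3.72 in scramble, was above EGR3 at 4.52 ± 0.268 in every library.

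The summed FOS family went from 173 and 174 CPM per kilobase in scramble to 154 and 157 in C3 libraries and 241 and 252 in C6 libraries, which is 89.5% and 142% of the scramble mean. The summed JUN family went from 81.8 and 77.5 to 121 and 119.99 in C3 and 150.2 and 149.9 in C6, which is 151% and 188%. The order within each family was the same in all groups for JUN over JUND over JUNB, and FOSL1 was the highest FOS family member throughout.

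**Figure D3:**
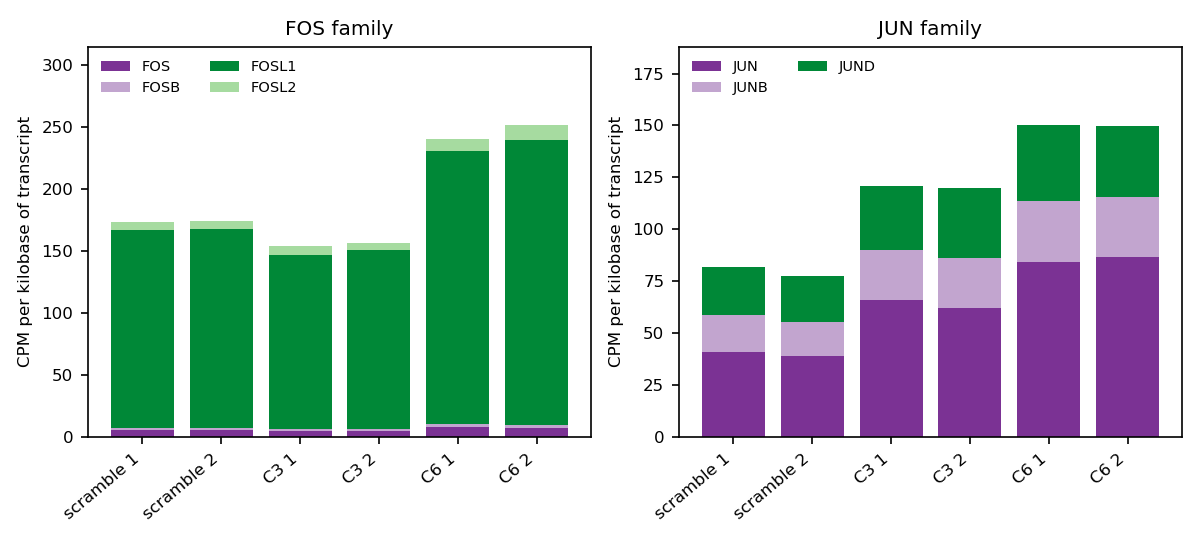
Summed level (y axis, CPM per kilobase of transcript, from 0) of the FOS family (left) and JUN family (right) in each library (x axis), stacked by gene. FOSL1 fills most of the FOS bars, which are lowest in C3 and highest in C6, while the JUN bars are higher than scramble in both lines.

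Of 4 relatives of the EGR factors 1 rose and 1 fell in C3, beside 12.4% and 11.9% of all genes, and 1 rose and 1 fell in C6, beside 23.8% and 22.8%. NAB2, a corepressor and a known target of EGR1, stood at 25.2 and 25.9 CPM in scramble, 35.2 and 37.7 in C3 libraries and 24.2 and 25.7 in C6 libraries. It rose in C3 by 0.51 ± 0.09 (adjusted p = 0.000583) and differed between C6 and C3 by −0.55 ± 0.09 (adjusted p = 0.000111). NAB1, the other corepressor, fell in C3 (−0.22 ± 0.06, adjusted p = 0.0191), where the median of its neighbours was −0.10. EGR2 fell in C6 (−0.59 ± 0.19, adjusted p = 0.0189) and was lower in C6 than in C3 by a difference of −0.98 ± 0.18 (adjusted p = 0.000416). EGR4, under 5 CPM in every library, rose in C6 (0.89 ± 0.30, adjusted p = 0.0235). DESeq2 made neither of these calls of C6 against scramble.

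Of 8 tested genes in a list of known EGR1 targets, 3 rose and 2 fell in C3, beside 12.4% and 11.9% of all genes, and 1 rose and 2 fell in C6, beside 23.8% and 22.8%. PDGFA, a growth factor chain, went from 57.5 and 48.0 CPM to 85.8 and 86.6 in C3 (0.71 ± 0.08, adjusted p = 1.7e-05) and stood at 60.6 and 58.4 in C6 (adjusted p = 0.104). GDF15, a stress-induced cytokine, rose in C3 from 326 and 296 to 646 and 710 CPM (1.13 ± 0.07, adjusted p = 1.1e-08) and fell in C6 to 252 and 248 (−0.32 ± 0.07, adjusted p = 0.00109). TGFB1 rose in both lines, by 0.34 and 0.29. The 2 that fell in C3 were HPSE and F3, and DESeq2 called 1 of them. HPSE, at 1.63 and 1.68 CPM in scramble, fell in both lines (−1.80 and −1.89). F3 fell in C3 by −0.77 ± 0.19 (adjusted p = 0.00726) and was not called in C6 (adjusted p = 0.364).

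Among 15 tested leucine zipper partners and competitors of AP-1, 3 rose and 0 fell in C3, beside 12.4% and 11.9% of all genes, and 6 rose and 2 fell in C6, beside 23.8% and 22.8%. BATF, which pairs with JUN proteins, and CREB5, a relative of ATF2, rose in both lines. BATF went from 8.62 and 7.63 CPM to 11.5 and 14.1 in C3 (0.65 ± 0.14) and 14.8 and 14.6 in C6 (0.86 ± 0.14). CREB5 rose by 0.89 ± 0.17 and 1.07 ± 0.17. MAFK, a small MAF protein, rose in C6 by 1.06 ± 0.07 (adjusted p = 2.5e-08) and its C3 value was 0.12 ± 0.07 (adjusted p = 0.278). The median of the 51 neighbouring genes in C6 was 0.46 for MAFK and 0.29 for CREB5. In C3 the count of 0 lower genes was also 0 at an unadjusted p by edgeR and by DESeq2.

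Known AP-1 target genes were read as a list of 26, of which 21 were tested. In C3 10 of 21 fell and 2 rose, beside 11.9% and 12.4% of all genes, and in C6 13 of 21 rose and 1, the collagenase MMP13 at under 2 CPM, fell, beside 23.8% and 22.8%. The medians were −0.21 in C3 and 0.50 in C6. In the test of C6 against C3 18 of 21 were higher and 0 lower, the latter also at an unadjusted p by edgeR and by DESeq2, beside 25.1% and 24.1% of all genes. The untested ones were MMP1, MMP3, MMP10 and IL6, with no count in any library, and MMP9. Without C3 replicate 1 the counts were 8 lower and 2 higher in C3 and 16 higher in C6 against C3.

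CXCL8, the chemokine interleukin-8, stood at 11.1 and 10.2 CPM in scramble, 15.8 and 17.4 in C3 libraries and 38.5 and 34.2 in C6 libraries. The groups did not overlap, and CXCL8 rose by 0.65 ± 0.11 in C3 and 1.77 ± 0.11 in C6.

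Of the 21, 6 were called lower in C3 and higher in C6, where 4.93% of all genes were called with opposite signs in either order. Among the 6 were PLAU, PLAUR, CCND1, CD44 and LIF. These were named after their values were seen. PLAUR, the urokinase receptor, stood at 16.3 and 16.3 CPM in scramble, 8.81 and 9.29 in C3 libraries and 40.8 and 41.9 in C6 libraries. CD44, a hyaluronan receptor, stood at 9.40 and 9.76, then 5.62 and 4.70, then 29.9 and 31.6. FOSL1, at −0.17 and 0.50, had the same pair of signs, but its call in C3 was lost without either scramble library or either C3 library. The part of FOSL1 in the values of these genes was not tested. Of 10 colorectal epithelial markers 1 rose and 8 fell in C3, beside 12.4% and 11.9% of all genes. In C6 3 rose and 3 fell, beside 23.8% and 22.8%. In C6 against C3 8 were higher and 1 lower, beside 25.1% and 24.1% of all genes. Their summed level was between 8494 and 9140 CPM in scramble, 6888 and 7084 in C3 libraries and 8964 and 9071 in C6 libraries. KRT8, at 4744 and 4436 CPM in scramble, and KRT18, at 2253 and 2035, made up most of that sum. In C6 VIL1 and EPCAM were at 47.2% and 70.5% of their scramble means, and KRT19 was at 169%. The part of the epithelial markers in the counts of AP-1 targets was not tested.

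**Figure D4:**
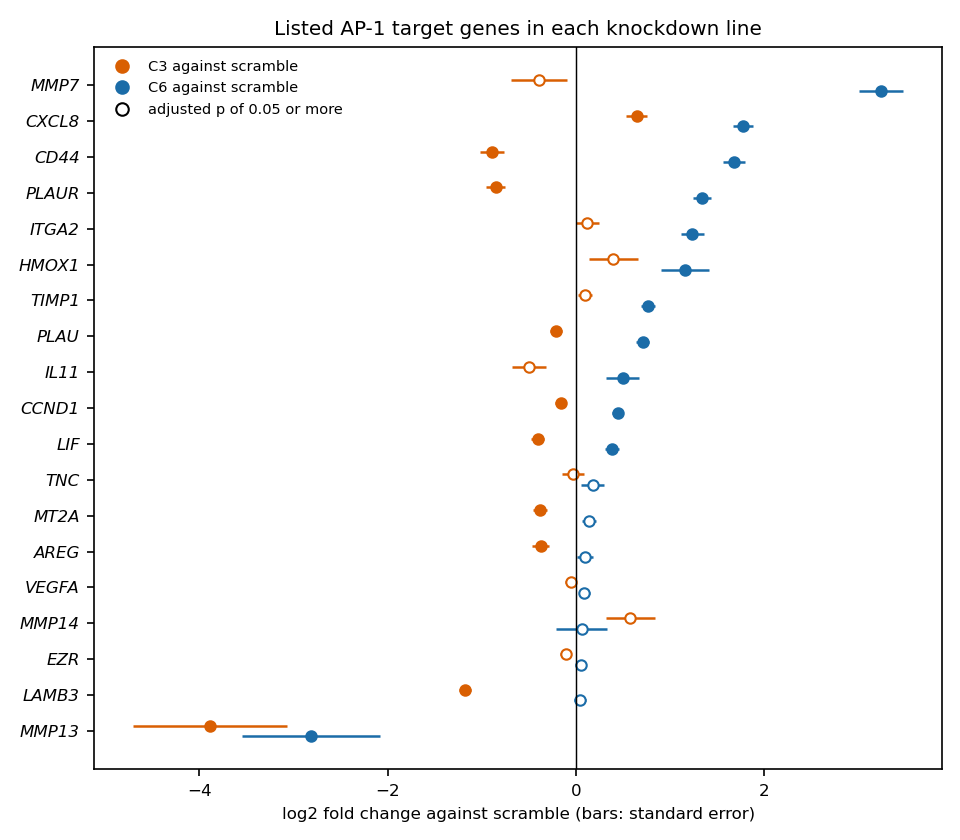
Log2 fold change against scramble (x axis, bars are standard errors) of 19 of the 21 tested AP-1 target genes (y axis, ordered by C6) in C3 (orange) and C6 (blue); open points have an adjusted p of 0.05 or more. Of those shown, 11 are called higher in C6 and 9 are called lower in C3, with CD44 at −0.89 in C3 and 1.68 in C6.

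Of 24 other immediate-early genes tested, 11 rose and 3 fell in C3, beside 12.4% and 11.9% of all genes, and 16 rose and 2 fell in C6, beside 23.8% and 22.8%, with medians of 0.18 and 0.48. In both lines 9 rose and 1, the nuclear receptor NR4A1, fell, beside 5.44% and 4.59% of all genes. KLF6, a zinc finger factor, went from 76.8 and 83.0 CPM to 128 and 121 in C3 and 237 and 235 in C6. TRIB1, a pseudokinase scaffold, went from 55.5 and 58.2 to 81.1 and 78.9 and then 134 and 129. DUSP1, a phosphatase that inactivates MAP kinases, went from 10.7 and 9.90 to 14.9 and 14.3 and then 22.6 and 23.8, rising by 0.50 ± 0.11 in C3 cells (adjusted p = 0.00374) and 1.17 ± 0.11 in C6 cells (adjusted p = 5.4e-07). Without C3 replicate 2 the count of higher genes in C3 was 7.

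Opposite signs were called for IER5 and HBEGF, lower in C3 and higher in C6, and for MYC, higher in C3 and lower in C6. Of all genes, 4.93% were called with opposite signs. HBEGF, a ligand of the EGF receptor, stood at 50.7 and 46.1 CPM in scramble, 23.3 and 24.0 in C3 libraries and 67.7 and 64.9 in C6 libraries. Immediate-early genes can respond to the handling of cells before lysis, and heat shock genes were read beside them. Of 8 heat shock genes 4 rose and 1 fell in C3, beside 12.4% and 11.9% of all genes. In C6 5 rose and 2 fell, beside 23.8% and 22.8%. HSPA1A rose by 0.40 ± 0.07 and 1.13 ± 0.07, DNAJB1 by 0.27 ± 0.06 and 0.64 ± 0.06 and HSPB1 by 0.61 ± 0.07 and 0.72 ± 0.07, with the median of its neighbours at −0.06 and 0.45. HSPA1A and HSPA1B are near-identical copies whose reads may be split between them. HSPA8, at 2003 and 1926 CPM in scramble, fell in both lines (−0.21 and −0.54). HSP90AA1, at 1337 and 1286 CPM in scramble, rose in C3 (0.35) and fell in C6 (−0.28). Most of the summed level of the list came from HSPA8 and HSP90AA1. That sum was between 3730 and 3864 CPM in scramble, 3895 and 4078 in C3 libraries and 3164 and 3281 in C6 libraries. The part of the heat shock genes in the rise of the factors was not tested.

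**Figure D5:**
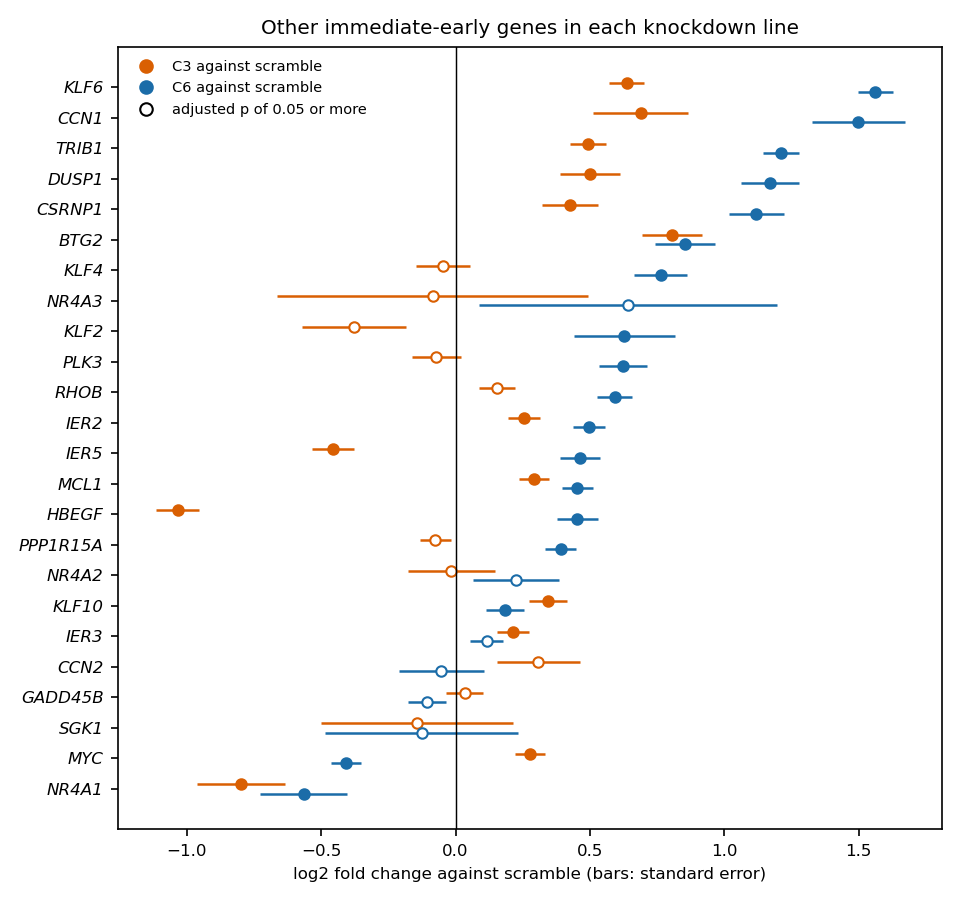
Log2 fold change against scramble (x axis, bars are standard errors) of the 24 other immediate-early genes (y axis, ordered by C6) in C3 (orange) and C6 (blue); open points have an adjusted p of 0.05 or more. KLF6 leads in C6 and NR4A1 lies on the left in both lines.

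Across the 6 libraries, the genes most like JUN in their deviations from the scramble mean were TMUB1, ZYX and NR2F1, at Euclidean distances of 0.145, 0.192 and 0.203 on the log2 scale. Those nearest to FOS were CYB5B (0.0992), FICD (0.104) and CLCC1 (0.105). Those nearest to EGR1 were SPRY4 (0.0785), DIDO1 (0.107) and HK2 (0.111). SPRY4, a Sprouty inhibitor of receptor kinase signalling, stood at 63.8 and 64.3 CPM in scramble, 95.4 and 90.0 in C3 libraries and 66.0 and 71.6 in C6 libraries. These were taken from 10415 genes with a mean of at least 5 CPM, which share libraries and depth with the factors.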

How the data were processed

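RNA from 6 SW620 libraries was sequenced as paired ends from a stranded poly(A) library kit, per the labels' protocols. The deposited table holds unscaled whole-number read counts per gene, per the file headers. The submitters' processing notes list StringTie 2.1.3b, HISAT2 2.1.0, DESeq2, Trimmomatic 0.38 and build hg38. The sources used here do not give their roles or the strand setting of the counting. If the counts are StringTie estimates, the tests treat them as tallies.

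Libraries were grouped by title. Genes were tested with edgeR 4.0.16 in R 4.3.3 (TMM, filterByExpr, robust quasi-likelihood fit of all 6 libraries as 3 groups, 3 residual degrees of freedom), with Benjamini-Hochberg adjustment over 13299 genes and a threshold of 0.05. Standard errors come from the fit. Scripts were tested on simulated data. The chi-square per degree of freedom between the 2 libraries of a group was 5.97 to 8.07, above sampling noise. Alternatives were RLE and upper-quartile scaling, no filter, a filter of 1 CPM in 2 libraries, DESeq2 1.42.0, a replicate block, each library left out, only the groups compared, the knockdown libraries as 1 group, and the running median of 51 neighbouring genes as an offset. Counts of the AP-1 target and other immediate-early lists under these settings were added after seeing the data.

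Positions and promoter windows are from RefSeq (GRCh38.p14). Named were DKC1, the 10 factors, the 3 genes of each list that had the smallest p for the mean of both lines, and the 3 genes nearest in pattern to JUN, FOS and EGR1, leaving out LOC, clone-type and antisense names. Further genes named among the lists were chosen after their values were seen. The members and lists were chosen with earlier results of these data known. Some genes that this rule names are not reported here and are left out of the plot of AP-1 targets.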

Additional observations from a re-analysis of the deposited data

Results flagged for a closer look

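Between the knockdown lines the effect differed, by edgeR's test of C6 against C3, for 8 of the 10 factors. The log2 differences were 0.81 for FOSB, 0.80 for EGR3, 0.70 for FOSL2, 0.66 for FOSL1, 0.65 for FOS, 0.42 for JUN and 0.27 for JUNB, all higher in C6, and −0.43 for EGR1, lower in C6. The same test called 49.2% of all genes.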

How the results depend on the processing

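Of 40 results for single factors under 8 other fits each and 6 libraries left out in turn, most kept direction and call: 305 values did so for other fits and 224 for libraries left out. With upper-quartile scaling FOS in the mean turned to −0.021, and it lay between −0.016 and 0.074 with a library left out. FOSB in C3 lay between −0.23 and 0.024 and FOSL2 in C3 between −0.052 and 0.21 with a library left out. ATF3 in C6 against C3 turned to 0.028 with the neighbour offset. None of these 4 was called. The cause was not tested. With the knockdown libraries as 1 group the factors higher in the mean went from 8 to 0, all genes called from 4382 to 80, and DKC1 to −1.56 (adjusted p = 0.124). JUND and ATF3 kept their size there (0.58 and 0.51, adjusted p = 0.0657 and 0.0866). The cause of these losses was not tested. The replicate numbers do not pair the libraries (correlations of deviations −0.298, 0.226 and −0.272). With the replicate block the factors called lower in C3 went from 1 to 0, FOSL1, and no other call of a factor changed. With a library left out, that count lay between 0 and 1, and all genes called lay between 2444 (without scramble replicate 2) and 4041 in the mean and between 1946 (without scramble replicate 2; 1947 without C3 replicate 2) and 3267 in C3. AP-1 targets lower in C6 and lower in C6 against C3 each lay between 0 and 1. Other immediate-early genes higher in C3 lay between 7 and 11, and those lower in C6 between 1 and 2. By DESeq2 1 of them was lower in C6, and with upper-quartile scaling 3 were lower in C6 against C3. That scaling put the summed CPM of the factors in scramble at 820, against 801.8. Depth limits MMP13, NR4A3, PECAM1 and HPSE, at under 2 CPM.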

Other observations

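The kinases upstream of AP-1 were tested as a list of 20 genes, of which 3 rose in C3 and 9 in C6, beside 12.4% and 23.8% of all genes. In either line 0 fell, also at an unadjusted p by edgeR and by DESeq2, beside 11.9% of all genes in C3 and 22.8% in C6. BRAF, a kinase of the ERK cascade, went from 57.1 and 65.1 CPM in scramble to 73.2 and 72.3 in C3 libraries and 107 and 114 in C6 libraries. Its log2 changes were 0.25 and 0.86, beside a median of 0.33 and 0.57 for its 51 neighbouring genes, so its C3 value lay below that of its neighbours. MAP2K6, which activates p38, was highest in C3, at 113 and 111 CPM, against 64.2 and 66.2 in scramble and 73.4 and 77.4 in C6. MAP3K1 rose in C6 by 0.66 ± 0.09 (adjusted p = 2.2e-05 by edgeR), where the median of its 51 neighbouring genes was 0.49.

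Of 6 genes for SRF and its partners, 2 rose and 0 fell in C3 (also 0 at an unadjusted p and by DESeq2), beside 12.4% and 11.9% of all genes, and 3 rose and 1 fell in C6, beside 23.8% and 22.8%. ELK3, a ternary complex factor, went from 11.2 and 11.6 CPM in scramble to 15.3 and 14.7 in C3 libraries and 46.4 and 44.8 in C6 libraries. ELK1, another such factor, rose in C6 by 0.30 ± 0.07. SRF rose in C3 by 0.31 ± 0.08 (adjusted p = 0.00746 by edgeR) and stood at 0.01 in C6, and C6 lay below C3 by a difference of −0.30. MRTFB, an SRF coactivator, fell in C6 (−0.60 ± 0.11).

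Genes that act on the decay of AU-rich mRNAs or on JUN protein numbered 10, of which 4 rose and 0 fell in C3, beside 12.4% and 11.9% of all genes, and 4 rose and 2 fell in C6, beside 23.8% and 22.8%. ZFP36L1, a decay factor, stood at 572 and 583 CPM in scramble, 601 and 572 in C3 libraries and 1086 and 1146 in C6 libraries. ZFP36, the tristetraprolin gene, went from 13.7 and 14.8 to 16.9 and 18.0 and then 30.6 and 29.3. ZFP36L2 rose in both lines, by 0.26 and 0.58. HNRNPD and KHSRP were called higher in C3 and lower in C6, where 4.93% of all genes were called with opposite signs. The count of 0 lower genes in C3 was the same at an unadjusted p by edgeR and by DESeq2.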
